A study of Homo sapiens with 12 samples.

Results

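The proteasome genes described here were the 48 genes, of 45416 in the deposited table, whose symbol is PSM followed by a letter from A to G and a number. By role, 8 were genes of the alpha ring and 8 of the constitutive beta ring of the 20S core. The last 8 include *PSMB11*, which is known from thymic epithelium rather than as a constitutive subunit. There were also the 3 immunoproteasome beta subunits *PSMB8*, *PSMB9* and *PSMB10*, 6 ATPases and 11 non-ATPase subunits of the 19S particle, 7 assembly factors, and 5 alternative regulators. Of the 48 genes, 46 averaged over 20 CPM and passed the filter on low values, whereas *PSMA8* and *PSMB11* did not. *PSMA8*, an alpha subunit known from testis, had 1 read in all libraries together, and *PSMB11*, the beta subunit of thymic epithelium, had 2.

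The proteasome is the protease that degrades most ubiquitin-tagged proteins of the cell. Its 20S core is a barrel of outer alpha rings, which gate the entrance, and inner beta rings, in which *PSMB5*, *PSMB6* and *PSMB7* carry the active sites. The 19S particle caps the barrel, where it binds ubiquitin chains and unfolds substrates with a ring of ATPases. IFNγ is known to induce *PSMB8*, *PSMB9* and *PSMB10*, which take the place of *PSMB5*, *PSMB6* and *PSMB7* in newly built cores to form the immunoproteasome. It also induces *PSME1* and *PSME2*, which form the PA28 cap, and this form of the protease is known for producing peptides presented on MHC class I.

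Expression was measured by polyA RNA-seq in U251, an established glioblastoma cell line whose genotype the labels give as WT. Cells received the siRNA control (siNC) or 1 of 2 siRNAs against PD-L1, an immune checkpoint ligand encoded by *CD274*, named siPDL1-1 and siPDL1-2. They were then left unstimulated or were given IFNγ at 100 U/ml for 24 h, starting 48 h after transfection. Each of the 6 groups held 2 libraries, and the methods speak of independent experiments without saying which libraries belong to one. The libraries held between 17101069 and 55657393 reads on genes, so that 1 read was worth between 0.0187 and 0.0586 CPM. Values are the authors' normalised CPM, and differences are on the scale of log2(CPM + 1).

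The knockdown was partial. *CD274* was at 4.60 and 4.91 CPM in the unstimulated siNC libraries, 2.67 and 2.73 CPM with siPDL1-1, and 3.57 and 3.45 CPM with siPDL1-2. After IFNγ it was at 71.2 and 76.0 CPM with siNC, 60.9 and 66.7 CPM with siPDL1-1, and 37.5 and 35.0 CPM with siPDL1-2. The reduction after IFNγ passed the thresholds with siPDL1-2 (log2 fold change -1.001, limma FDR = 2.79e-05) but not with siPDL1-1 (-0.20, limma FDR = 0.0604). In unstimulated cells the order was reversed. Over 11 alternatives to the main fit, the log2 difference there ranged from -0.86 to -0.60 with siPDL1-1 and from -0.47 to -0.31 with siPDL1-2. All 6 glioma line markers examined (*VIM*, *NES*, *CD44*, *GFAP*, *S100B* and *SOX9*) were detected above 1 CPM in every library. Of 10 markers of other cell types, 9 were below 1 CPM in every library, and *CD68*, which is not restricted to macrophages, ranged from 28.2 CPM in an unstimulated siNC library to 80.2 CPM in an IFNγ-stimulated siPDL1-1 library. In bulk libraries, a change in the number of cells expressing a gene and a change in RNA per cell cannot be told apart.

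Promoter sequence was read for the genes from RefSeq on GRCh38.p14, from 250 bases before to 50 bases after each annotated start, with the start base counted as 0. Windows were found for 42 of the 48 genes, 51 windows in all. The letters GAAANNGAAA, which resemble the interferon-stimulated response element (ISRE) bound by factors of the IRF family, were searched on both strands and were present in 3.57% of 35116 windows of the same length. Among the proteasome genes they occurred in 7 of the 51 windows, which belonged to 7 genes. Of these genes, 4 were the immunoproteasome and PA28 genes shown first, with the match in capitals (TTTC reads as GAAA on the other strand).
PSMB8: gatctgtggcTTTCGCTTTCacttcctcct
PSMB10: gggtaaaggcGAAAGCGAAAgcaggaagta
PSME1: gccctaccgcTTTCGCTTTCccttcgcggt
PSME2: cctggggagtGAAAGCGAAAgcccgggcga
PSMA4: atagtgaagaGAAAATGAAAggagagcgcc
PSMB4: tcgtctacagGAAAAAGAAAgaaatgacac
PSMG4: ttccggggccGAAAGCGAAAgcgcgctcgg

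The *PSMB8* run lies at chr6:32844032-32844061 on the minus strand, with the match from -4 to 5. The *PSMB10* run lies at chr16:67936852-67936881 on the minus strand, with the match from -21 to -12. For *PSME1* the run is chr14:24136189-24136218 on the plus strand (match from 5 to 14), and for its partner *PSME2* it is chr14:24146619-24146648 on the minus strand (match from -28 to -19). These 4 matches stood within 28 bases of an annotated start and held the same 10 letters on one strand or the other, as did the match in *PSMG4* at chr6:3258904-3258933 (plus strand, -33 to -24). The run of *PSMB4* is chr1:151399495-151399524 (plus strand, -68 to -59). That of *PSMA4* is chr15:78540155-78540184 (plus strand, -240 to -231). Matches are a description of letters and were not tested as binding sites.

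*PSMB9* had no such match in its window, which says only that these letters are absent from it. It is transcribed away from the neighbouring *TAP1*, which encodes a subunit of the peptide transporter of the class I pathway, and 2 overlapping matches occurred in the *TAP1* window, 354 and 360 bases from the *PSMB9* start. They are shown because the 2 genes start close to each other on opposite strands, with the capitals again marking the match.
TAP1 match at 354 bases: aggcggccgcTTTCGATTTCgctttcccct
TAP1 match at 360 bases: ccgctttcgaTTTCGCTTTCccctaaatgg

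The *TAP1* runs are chr6:32853819-32853848 and chr6:32853813-32853842, both on the minus strand. The ISRE-like letters were found in the window of *PSMB8* and not in that of *PSMB5*, its constitutive counterpart. TGACNNNGC, a pattern of the antioxidant response element that NRF1 and NRF2 bind, was in 13.3% of all windows. It was in 15 of the 51 windows of proteasome genes, which belonged to 15 genes.

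IFNγ raised the inducible catalytic subunits and PA28 by far more than any other proteasome gene, and raised most of the alpha ring by less than 2-fold. The 19S ATPases had no call in the fit of all 12 libraries on the authors' normalised values. In siNC cells, 10 of the 46 genes tested (21.7%) were called higher at FDR < 0.01 and a fold change above 1.5, against 6.67% of all 17982 genes. Without the fold change threshold, 18 genes (39.1%) were higher, against 17.9% of all genes. None was lower, against 9.34% of all genes, where limma gave 3 proteasome genes lower at an unadjusted p under 0.05 and edgeR gave 1 past the FDR threshold. The median log2 change was 0.10 over the 46 genes and 0.00 over all genes tested. On plain CPM, without the authors' library size adjustment, the split was 16 higher and 6 lower.

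**Figure D1:**
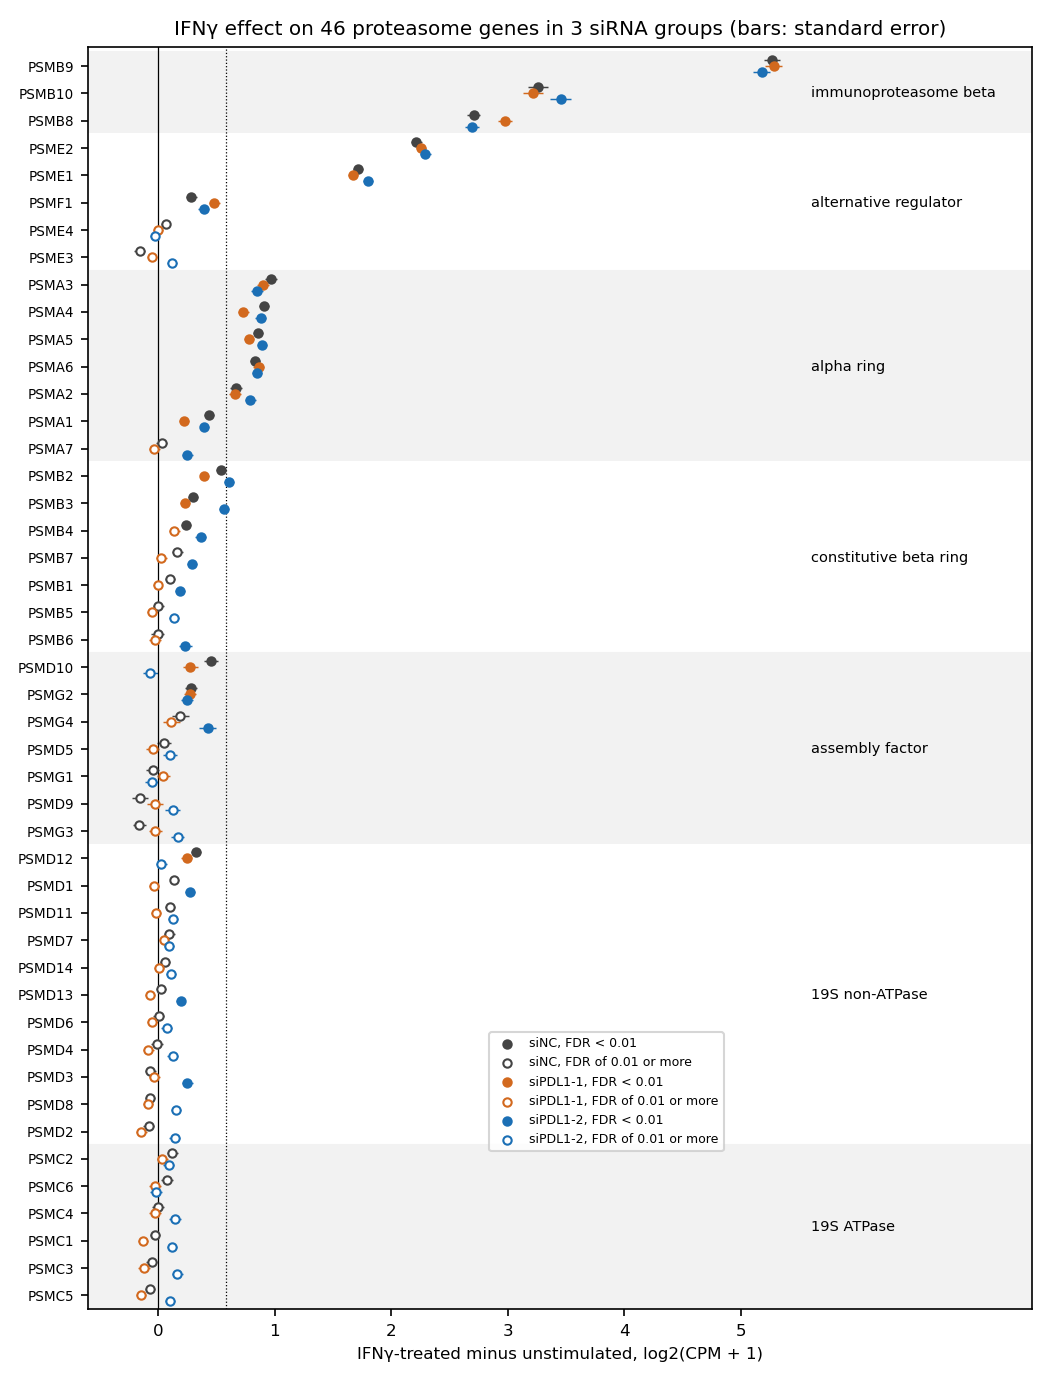
Change with IFNγ (IFNγ-stimulated minus unstimulated, log2(CPM + 1)) of the 46 proteasome genes tested, grouped by role, in siNC, siPDL1-1 and siPDL1-2 cells; points are fitted differences, bars their standard errors, filled points have FDR < 0.01, and the dotted line marks a 1.5-fold change. *PSMB9* lies above 5 in the 3 siRNA groups, *PSMB10*, *PSMB8*, *PSME2* and *PSME1* lie between 1.67 and 3.45, and the 19S ATPases lie near 0 with no filled point.

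*PSMB9*, the inducible counterpart of *PSMB6*, was at 4.46 and 4.43 CPM in the unstimulated siNC libraries and at 205 and 212 CPM after IFNγ. In siPDL1-1 cells it was at 4.52 and 4.21 CPM without and 212 and 203 CPM with IFNγ, and in siPDL1-2 cells at 4.89 and 4.21 CPM without and 189 and 211 CPM with it. The lowest stimulated library was thus far above the highest unstimulated one. The log2 change was 5.27 in siNC cells (standard error 0.0716, limma FDR = 3.76e-17), 5.28 with siPDL1-1 and 5.18 with siPDL1-2, or 38.5-, 38.9- and 36.3-fold on the scale of CPM + 1. This scale understates the change of a gene with low values, and with a pseudocount of 0.1 in place of 1 the change of *PSMB9* in siNC cells was 5.53. The annotated region of *PSMB9* (chromosome 6, 32844136 to 32859851, plus strand, GRCh38) overlaps *TAP1* and *PSMB8* on the other strand, which averaged 740 and 139 CPM against 105 CPM for *PSMB9*, and reads were counted without regard to strand.

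*PSMB10*, the inducible counterpart of *PSMB7*, was at 24.7 and 26.1 CPM in unstimulated and 274 and 231 CPM in IFNγ-stimulated siNC libraries. It was at 28.9 and 28.6 against 297 and 255 CPM with siPDL1-1, and at 24.0 and 24.0 against 255 and 292 CPM with siPDL1-2. The 2 stimulated libraries of a group stood farther apart than for the other inducible subunits, and still well above the unstimulated ones. Its log2 changes were 3.26 (standard error 0.0885, limma FDR = 2.23e-11), 3.22 and 3.45.

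*PSMB8*, the inducible counterpart of *PSMB5*, was at 37.5 and 33.5 CPM in unstimulated and 233 and 240.1 CPM in stimulated siNC libraries. The values were 32.6 and 34.2 against 279 and 261 CPM with siPDL1-1, and 33.7 and 33.5 against 214 and 232 CPM with siPDL1-2. Among the stimulated libraries, both siPDL1-1 libraries were the highest. The log2 changes were 2.71 (standard error 0.0587, limma FDR = 1.15e-14), 2.98 and 2.69. *PSMB8* is on the minus strand of chromosome 6 and overlaps *PSMB9* as well as *PSMB8-AS1*, which averaged 16.5 CPM.

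**Figure D2:**
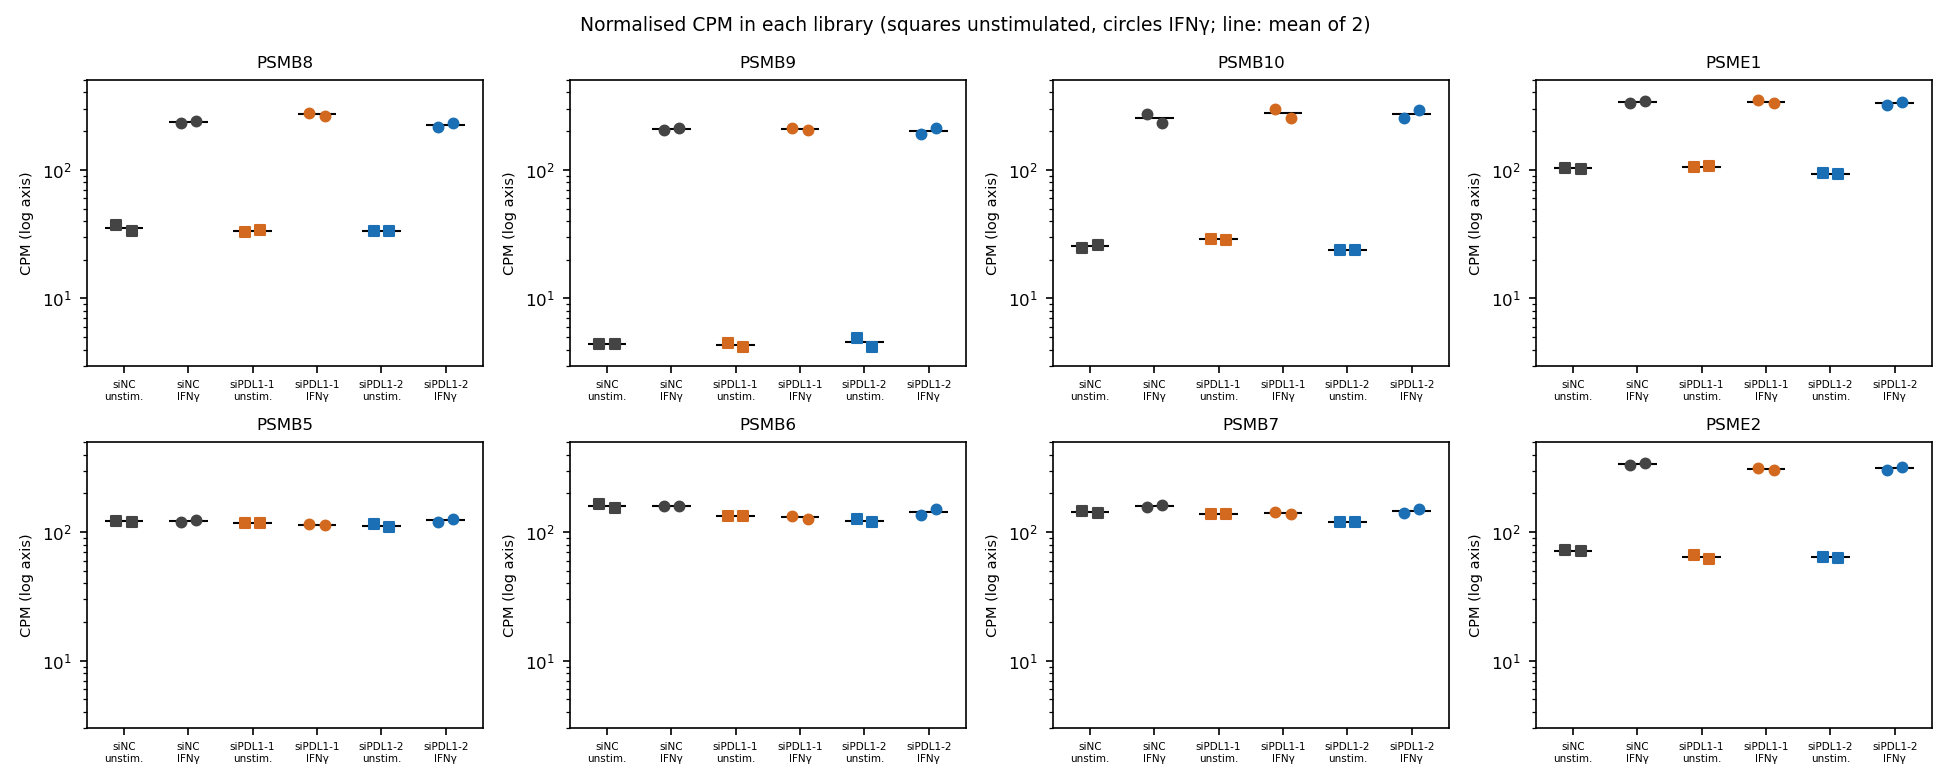
Normalised CPM (log axis) of the 3 inducible catalytic subunits, their constitutive counterparts and the PA28 subunits in each of the 12 libraries; squares are unstimulated and circles IFNγ-stimulated libraries, and lines are means of 2. *PSMB9* moves from between 4.21 and 4.89 to between 189 and 212 CPM, while *PSMB5* stays between 109 and 127 CPM.

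The PA28 genes started from higher levels. *PSME1* (PA28 alpha) was at 103 and 102 CPM in unstimulated siNC libraries and at 331 and 346 CPM after IFNγ. It went from 105 and 107 to 351 and 329 CPM with siPDL1-1 and from 94.7 and 92.7 to 322 and 334 CPM with siPDL1-2. Stimulated and unstimulated libraries did not overlap, and the log2 changes were 1.71 (standard error 0.0432, limma FDR = 7.36e-14), 1.67 and 1.80. *PSME2* (PA28 beta) was at 72.6 and 71.3 CPM in unstimulated siNC libraries and at 332 and 343 CPM after IFNγ. With siPDL1-1 it was at 66.9 and 62.2 against 318 and 306 CPM, and with siPDL1-2 at 63.6 and 63.5 against 306 and 323 CPM. Its log2 changes were 2.21 (standard error 0.0465, limma FDR = 7.56e-15), 2.25 and 2.29. Per kilobase of the MANE Select transcript, *PSME1* averaged 106 and *PSME2* 90.7 CPM per kb in unstimulated siNC cells, and 351 and 425 CPM per kb after IFNγ.

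The remaining regulators did not share this rise. *PSMF1* (PI31, which binds the 20S core) rose in the 3 siRNA groups, by 0.28, 0.48 and 0.39 on the log2 scale, from between 105 and 121 CPM to between 138 and 166 CPM. *PSME3*, the nuclear PA28 gamma, changed by -0.16, -0.05 and 0.12, with no call (the lowest limma FDR was 0.011, in siNC cells). *PSME4* (PA200, the activator known from histone degradation) changed by 0.06, -0.00 and -0.03.

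In the alpha ring, 5 of 7 tested genes were called higher in each of the 3 siRNA groups, namely *PSMA2*, *PSMA3*, *PSMA4*, *PSMA5* and *PSMA6*. *PSMA3* went from 76.6 and 70.6 to 141 and 148 CPM in siNC cells, from 63.9 and 62.2 to 116 and 121 CPM with siPDL1-1, and from 68.5 and 68.8 to 123 and 125 CPM with siPDL1-2. *PSMA4* went from 129 and 132 to 238 and 255 CPM, from 123 and 128 to 207 and 211 CPM, and from 124 and 121 to 222 and 230.4 CPM in the same order of groups. Every stimulated library was above every unstimulated one for both genes. The log2 changes were 0.97, 0.90 and 0.85 for *PSMA3*, and 0.91, 0.73 and 0.88 for *PSMA4*.

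*PSMA5* was at 133 and 128 CPM in unstimulated and 232 and 242 CPM in stimulated siNC libraries, 121 and 121 against 212 and 204 CPM with siPDL1-1, and 115 and 114 against 205 and 219 CPM with siPDL1-2. *PSMA6* was at 136 and 131 against 231 and 245 CPM, 126 and 120.4 against 223 and 226 CPM, and 113 and 116 against 205 and 207 CPM. *PSMA2* was at 140.1 and 134 against 213 and 223 CPM, 129 and 119 against 202 and 189.6 CPM, and 114 and 116 against 197 and 204 CPM. The log2 changes in siNC cells were 0.86 for *PSMA5*, 0.83 for *PSMA6* and 0.67 for *PSMA2*, and none of these genes had overlapping groups. On plain CPM, *PSMA2* no longer passed the fold change threshold in siNC cells. *PSMA2* shares its strand and region with *AC010132.3* (39.8 CPM) and *PSMA6* with *AL121594.1* (28.9 CPM), and *PSMA3* overlaps *PSMA3-AS1* (17.2 CPM) on the other strand. Part of their counts may therefore be uncertain, but these overlaps are of whole gene regions and shared exons were not examined.

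*PSMA1* rose by less (log2 changes 0.44, 0.22 and 0.40), past FDR < 0.01 but below the fold change threshold. In siPDL1-1 cells that call was lost on plain CPM and without the first unstimulated library. *PSMA7*, the most abundant alpha subunit per kilobase in unstimulated siNC cells (306 CPM per kb), changed by 0.03 in siNC and -0.03 in siPDL1-1 cells and rose by 0.25 in siPDL1-2 cells (limma FDR = 0.00093), a call lost without the second unstimulated or the second stimulated library. The median over the 7 alpha genes was 0.83 in siNC cells, against 0.16 over the 7 constitutive beta genes tested.

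Of the constitutive beta genes, *PSMB2* and *PSMB3* rose in each siRNA group. *PSMB2* went from 193 and 194 to 276 and 288 CPM in siNC cells, from 208 and 199 to 268 and 267 CPM with siPDL1-1, and from 196 and 197 to 294 and 304 CPM with siPDL1-2. Its log2 changes were 0.54, 0.39 and 0.61, and the last of these, 1.52-fold, passed the fold change threshold except on plain CPM (0.55) and without the second stimulated siPDL1-2 library (0.58). *PSMB3* changed by 0.30, 0.23 and 0.56. *PSMB4* changed by 0.24, 0.14 and 0.36, past FDR < 0.01 in siNC and siPDL1-2 cells.

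The active-site subunits that the immunoproteasome replaces changed little in siNC and siPDL1-1 cells, as did *PSMB1*, a structural beta subunit. *PSMB1* changed by 0.10 in siNC and -0.01 in siPDL1-1 cells and rose by 0.18 in siPDL1-2 cells (limma FDR = 0.00419). *PSMB5* was at 123 and 120.1 CPM in unstimulated and 119 and 123 CPM in stimulated siNC libraries, 119 and 119 against 116 and 113 CPM with siPDL1-1, and 115 and 109 against 120.2 and 127 CPM with siPDL1-2. The siNC groups overlapped, and the log2 change was 0.00 with a 95% interval from -0.10 to 0.10. *PSMB6* was at 166 and 155 against 159 and 161 CPM in siNC, 133 and 133 against 134 and 127 CPM in siPDL1-1, and 126 and 119 against 137 and 151 CPM in siPDL1-2 cells. Its log2 change was -0.01 in siNC cells (95% interval from -0.12 to 0.11), -0.03 with siPDL1-1, and 0.23 with siPDL1-2, where it passed FDR < 0.01 (limma FDR = 0.0045).

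*PSMB7* was at 146 and 141 CPM in unstimulated and 158 and 163 CPM in stimulated siNC libraries, 137 and 138 against 143 and 138 CPM with siPDL1-1, and 121 and 119 against 141 and 152 CPM with siPDL1-2. The siNC groups did not overlap, but the log2 change of 0.16 missed the threshold (limma FDR = 0.0104). With siPDL1-2 it was 0.29 (limma FDR = 0.000239).

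The balance within each catalytic pair was compared in every library as the log2 difference between the inducible and the constitutive subunit. With IFNγ it moved by 2.76 for *PSMB8* against *PSMB5*, by 5.18 for *PSMB9* against *PSMB6*, and by 3.15 for *PSMB10* against *PSMB7* (means over the 3 siRNA groups, all in the same direction). Each had p = 0.00926 in a two-sided exact permutation test within siRNA groups (the smallest value the test allows), and the same value after Benjamini-Hochberg adjustment over the 3 pairs. In CPM per kb, *PSMB8* made up 21.3% ± 1.08 of its pair in unstimulated siNC cells and 64.4% ± 0.0292 after IFNγ (mean ± SD, n = 2). *PSMB9* went from 2.19% ± 0.0963 to 51.4% ± 0.467, and *PSMB10* from 15.2% ± 0.806 to 61.2% ± 3.37.

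With siPDL1-1, these shares went from 20.7% to 68.7% for *PSMB8*, from 2.59% to 56.4% for *PSMB9* and from 17.4% to 66.4% for *PSMB10*. With siPDL1-2 they went from 21.8% to 62.7%, from 2.92% to 52.9% and from 16.8% to 65.2%. By these values, in stimulated cells the inducible transcript exceeded its constitutive counterpart per kilobase in the 3 pairs and the 3 siRNA groups. For *PSMB9* in siNC cells the excess was small, at 51.1% and 51.7% of the pair. Its region overlaps *TAP1* and *PSMB8*, reads were counted without regard to strand, and a single transcript length was used per gene. The share of *PSMB9* is therefore uncertain.

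**Figure D3:**
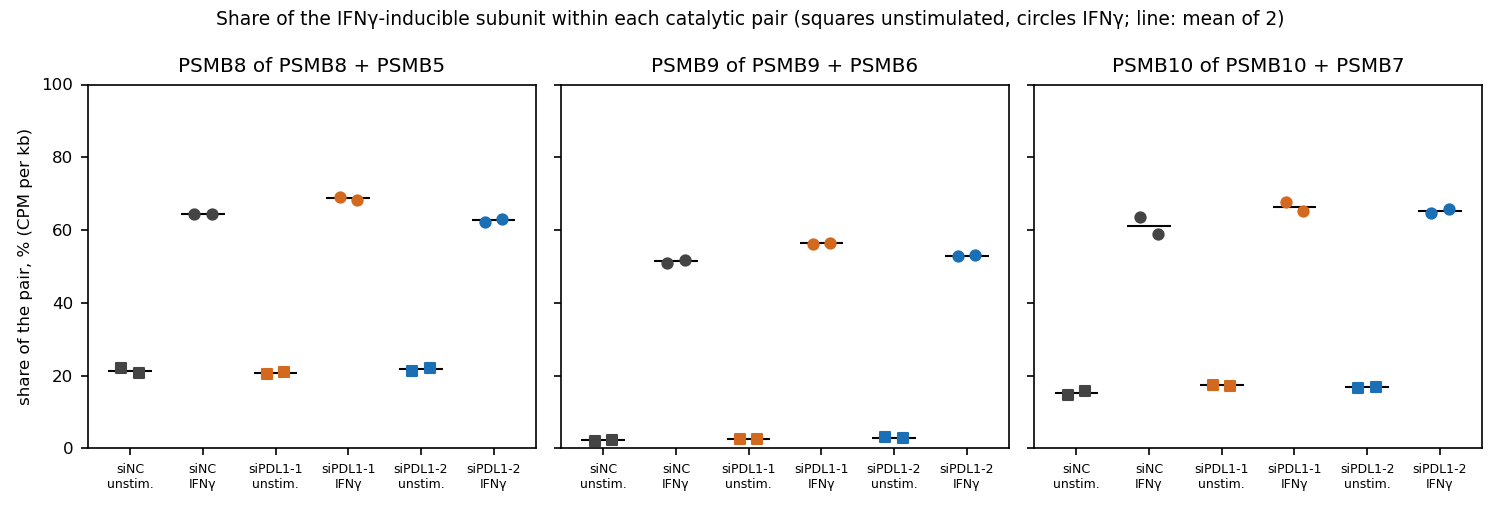
Share (%) of the inducible subunit in the summed CPM per kb of each catalytic pair, 1 point per library (squares unstimulated, circles IFNγ-stimulated, lines means of 2). The share of *PSMB9* is below 4% in every unstimulated library and above 51% in every stimulated one, and those of *PSMB8* and *PSMB10* move from between 14.6% and 22.2% to between 58.8% and 69.1%.

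None of the 6 ATPases of the 19S particle passed FDR < 0.01 with IFNγ in any siRNA group by limma or edgeR, but some did under other settings. On plain CPM, limma gave *PSMC5* lower in siNC cells and *PSMC1*, *PSMC3* and *PSMC5* lower in siPDL1-1 cells. Without the first stimulated library of the group, *PSMC3* was lower in siPDL1-1 cells, and *PSMC3* and *PSMC4* were higher in siPDL1-2 cells. On the authors' normalised CPM the medians were -0.02, -0.08 and 0.11 for siNC, siPDL1-1 and siPDL1-2, and limma's unadjusted p was under 0.05 for 1 higher, 3 lower and 4 higher ATPases in this order. *PSMC2* shares its strand and region with *PMPCB* (95.2 CPM), and *PSMC5* overlaps *FTSJ3* (162 CPM) on the other strand. In all, 13 proteasome genes were overlapped by a gene with over 10% of their own value. Of the 11 non-ATPase subunits, *PSMD12* alone rose in siNC cells (0.32) and in siPDL1-1 cells (0.24), while *PSMD1* (0.27), *PSMD3* (0.25) and *PSMD13* (0.19) rose in siPDL1-2 cells. *PSMD12*, a scaffold subunit of the lid, was at 76.8 and 75.5 CPM in unstimulated and 95.0 and 96.2 CPM in stimulated siNC libraries. *PSMD1* and *PSMD2* are the large base subunits that dock ubiquitin-binding proteins, and *PSMD2* changed by -0.08, -0.15 and 0.14 without a call. The deubiquitinase *PSMD14* changed by 0.06, 0.00 and 0.11, and the ubiquitin receptor *PSMD4* by -0.01, -0.09 and 0.12.

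Among the assembly factors, *PSMG2*, which with *PSMG1* chaperones the alpha ring, rose in each siRNA group, by 0.28, 0.27 and 0.25. It overlaps *SPIRE1* (43.8 CPM) and *CEP76* (9.19 CPM) on the other strand, against 38.2 CPM for *PSMG2* itself. Its partner *PSMG1* changed by -0.05, 0.04 and -0.06. *PSMD10* (gankyrin, a chaperone of the 19S base) rose in siNC (0.45) and siPDL1-1 cells (0.27) and not in siPDL1-2 cells (-0.07). The lowest values in siNC cells were those of *PSMG3* (-0.17), *PSME3* (-0.16) and *PSMD9* (-0.16). In siPDL1-1 cells they were those of *PSMC5* (-0.15), *PSMD2* (-0.15) and *PSMC1* (-0.13), and in siPDL1-2 cells those of *PSMD10* (-0.07), *PSMG1* (-0.06) and *PSME4* (-0.03). *PSMG4* rose only in siPDL1-2 cells past FDR < 0.01 (0.42, limma FDR = 0.000589), and its region overlaps *SLC22A23*, which averaged 112 CPM against 31.3 CPM for *PSMG4*.

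Past both thresholds, the counts with PD-L1 siRNA were close to that of siNC. At FDR < 0.01 alone, siPDL1-2 had more genes higher than the 18 of siNC. With siPDL1-1, 10 genes (21.7%) were called higher with IFNγ, against 5.58% of all genes, and 17 (37%) without the fold change threshold, against 14.4%. None was lower, against 8.49% of all genes, where 4 had an unadjusted limma p under 0.05 and edgeR gave 0. On plain CPM the split was 14 higher and 5 lower. With siPDL1-2, 11 genes (23.9%) were called higher, against 3.62% of all genes, and 24 (52.2%) without the fold change threshold, against 9.57%. None was lower, against 7.56% of all genes, and neither limma's unadjusted p nor edgeR's FDR gave any. The median change over the 46 genes was 0.01 with siPDL1-1 and 0.19 with siPDL1-2, against -0.02 and -0.01 over all genes tested.

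The 4 of 5 genes with a log2 change above 1 in siNC cells that had the ISRE-like letters shown above were *PSMB8*, *PSMB10*, *PSME1* and *PSME2*, and *PSMB9* was the fifth. Of the other 41 genes tested, 35 had a promoter window and 3 of them (*PSMA4*, *PSMB4* and *PSMG4*) had these letters. This count is a description, since the pattern was chosen with these changes known.

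In unstimulated cells, proteasome genes were slightly lower with either PD-L1 siRNA than with siNC, and none changed by more than 1.5-fold. At FDR < 0.01 and a fold change above 1.5, no proteasome gene was called by limma or edgeR with siPDL1-1 (4% of all genes were by limma) or with siPDL1-2 (6.17% of all genes). At an unadjusted limma p under 0.05, 20 were lower and 1 higher with siPDL1-1, and 29 were lower and 2 higher with siPDL1-2. No share over all genes was computed for these unadjusted counts. Without the fold change threshold, 12 genes (26.1%) were lower with siPDL1-1, against 8.99% of all genes. None was higher, against 9.8% of all genes, and edgeR gave 0 as well. With siPDL1-2, 20 genes (43.5%) were lower, against 11.9% of all genes, and 2 were higher, against 16.5%. The median difference was -0.08 with siPDL1-1 and -0.14 with siPDL1-2, against 0.02 and 0.03 over all genes, and 41 and 40 of the 46 genes were below 0. Of all genes tested, 53.3% and 54.3% were above 0. Both comparisons used the same siNC libraries. The 12 genes became 3 without the first unstimulated siNC library and 5 and 4 without the first or second siPDL1-1 library. The 22 genes became 10, 12 and 11 without the first siNC and the first or second siPDL1-2 library.

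**Figure D4:**
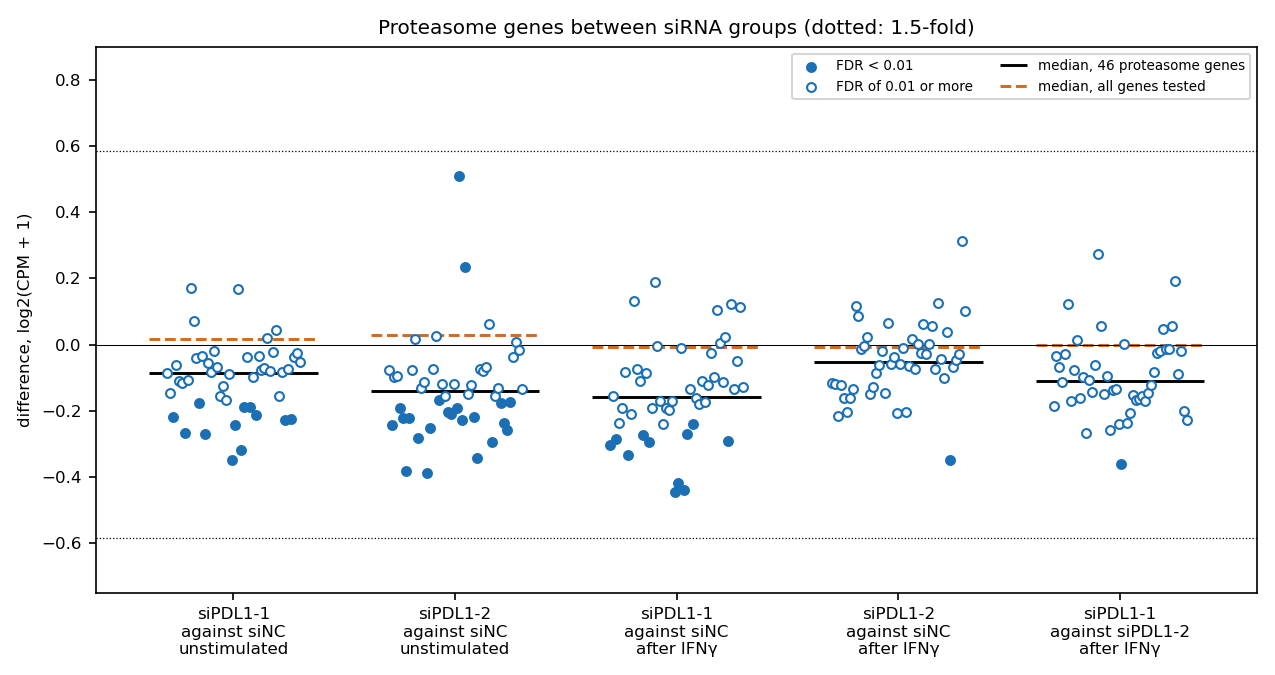
Difference between siRNA groups, log2(CPM + 1), for the 46 proteasome genes in 5 comparisons; filled points have FDR < 0.01, solid lines are medians of the 46 genes, dashed lines medians of all genes tested, and dotted lines mark 1.5-fold. No point lies beyond the dotted lines, and the medians of the proteasome genes lie between -0.16 and -0.05.

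With siPDL1-1, the largest decreases in unstimulated cells were those of *PSMC6* (-0.35), *PSMD11* (-0.32) and *PSMB6* (-0.27). Genes picked as the largest tend to have groups that do not overlap, so such separation is description only. *PSMC6*, an ATPase of the 19S ring, was at 66.1 and 66.6 CPM with siNC and at 52.7 and 51.1 CPM with siPDL1-1 (limma FDR = 0.000131). *PSMD11*, a lid subunit, was at 202 and 198 CPM with siNC and at 157 and 162 CPM with siPDL1-1 (limma FDR = 7.8e-05). The groups did not overlap for either gene, and *PSMC6*, *PSMD1* and *PSMD11* were past FDR < 0.01 under each of the 11 alternatives tried. The other 9 genes past the threshold were *PSMA3*, *PSMA7*, *PSMB4*, *PSMB6*, *PSMD3*, *PSMD12*, *PSMD14*, *PSME4* and *PSMG1*. The highest differences were those of *PSMB10* (0.17), *PSMD10* (0.17) and *PSMB2* (0.07), none of which passed.

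With siPDL1-2, the largest decreases in unstimulated cells were those of *PSMB6* (-0.39), *PSMA7* (-0.38) and *PSMD3* (-0.34). *PSMB6* was at 166 and 155 CPM with siNC and at 126 and 119 CPM with siPDL1-2 (limma FDR = 4.54e-05). *PSMA7* was at 298 and 290.3 CPM with siNC and at 231 and 220.4 CPM with siPDL1-2 (limma FDR = 1.41e-05). Neither pair of groups overlapped, which is description only for genes named as the largest decreases. The genes past FDR < 0.01 under each of the 11 alternatives were *PSMA7*, *PSMB3*, *PSMB6*, *PSMB7*, *PSMD3*, *PSMD8*, *PSME4* and, in the other direction, *PSMD10*.

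*PSMD10* was at 59.4 and 53.4 CPM with siNC and at 83.6 and 77.9 CPM with siPDL1-2, a log2 difference of 0.51 (standard error 0.0636, limma FDR = 1.89e-05). *PSMD12* was at 76.8 and 75.5 CPM with siNC and at 89.5 and 90.0 CPM with siPDL1-2, a difference of 0.23 (limma FDR = 0.000835). In both genes, named as the highest differences, each siPDL1-2 library was above each siNC library, which adds no support. *PSMD7*, a lid subunit, had the next highest difference (0.06) and did not pass. By role, the 20 lower genes were 4 of 7 alpha genes, 4 of 7 constitutive beta genes, 3 of 6 ATPases, 5 of 11 non-ATPase subunits and 4 of 5 alternative regulators. None of the 7 assembly factors and none of the 3 immunoproteasome subunits was among them.

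After IFNγ, no proteasome gene passed both thresholds by limma or edgeR with siPDL1-1 (5.52% of all 17148 genes tested in the stimulated libraries did) or with siPDL1-2 (2.91%). Without the fold change threshold, 11 genes (23.9%) were lower with siPDL1-1, against 7.66% of all genes. None was higher, against 8.04% of all genes, where 1 had an unadjusted limma p under 0.05 (25 were lower) and edgeR gave 0. For these unadjusted counts no share over all genes was computed. The median difference was -0.16, against -0.01 over all genes, with 39 of 46 genes below 0 and 48.9% of all genes above 0. *PSMC6* was at 68.8 and 70.7 CPM with siNC and at 48.7 and 53.2 CPM with siPDL1-1, a log2 difference of -0.45 (standard error 0.067, limma FDR = 0.000697). *PSMD11* was at 215 and 213 against 155 and 159.8 CPM (-0.44, limma FDR = 0.000168).

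*PSMD1* was at 124 and 130.5 CPM with siNC and at 94.9 and 94.9 CPM with siPDL1-1 after IFNγ (-0.42, limma FDR = 0.000377). In these 3 genes of the 19S particle both siPDL1-1 libraries were below both siNC libraries. These genes were named for having the lowest differences, so the separation adds no support. *PSMA7*, *PSMC6*, *PSMD1* and *PSMD11* were past FDR < 0.01 under each of the 11 alternatives, whereas the number past it was 4 without the second siNC library, 7 without the first siPDL1-1 library and 21 with all 12 libraries in the fit. The other genes past the threshold were *PSMA1*, *PSMA3*, *PSMB4*, *PSMB6*, *PSMD12*, *PSMD14* and *PSME4*. The largest positive differences were those of *PSMB8* (0.19, limma FDR = 0.039), *PSMB10* (0.13) and *PSMF1* (0.12), and none passed.

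None of the inducible genes was called between stimulated siPDL1-1 and siNC cells, although the 95% interval of *PSMB8* lay above 0. The log2 differences were -0.01 for *PSMB9* (95% interval from -0.15 to 0.14), 0.00 for *PSME1* (from -0.12 to 0.13), -0.11 for *PSME2* (from -0.23 to 0.01), 0.13 for *PSMB10* (from -0.11 to 0.37) and 0.19 for *PSMB8* (from 0.06 to 0.32). In the same libraries, genes of the type I interferon response were far higher. The 22 measured genes of that list summed to between 6321 and 6414 CPM in stimulated siPDL1-1 libraries, between 739 and 765 CPM with siNC and between 794 and 819 CPM with siPDL1-2, and 21 of 22 were called higher with siPDL1-1 (median 3.12). Its part in the proteasome differences was not tested.

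With siPDL1-2 after IFNγ, 10 genes were lower and 1 higher at an unadjusted p under 0.05, for which no share over all genes was computed. Past FDR < 0.01 there was 1 gene, against 9.67% of all genes (4.61% higher and 5.06% lower). It was *PSME4*, at 266 and 271 CPM with siNC and 215 and 207 CPM with siPDL1-2 (-0.35, limma FDR = 0.00193), and it no longer passed when either siPDL1-2 library was left out. The next lowest differences were those of *PSMA3* (-0.22) and *PSMC6* (-0.21), and the highest were those of *PSMG3* (0.31, limma FDR = 0.0109), *PSMD9* (0.12) and *PSMB10* (0.12). With DESeq2's size factors or on plain CPM, the split was 1 higher and 1 lower. The median difference was -0.05, against -0.01 over all genes. For the inducible genes it was -0.06 for *PSMB9*, -0.08 for *PSMB8*, 0.12 for *PSMB10*, -0.04 for *PSME1* and -0.10 for *PSME2*, with no call.

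Between the siRNAs after IFNγ, no proteasome gene passed both thresholds by limma or edgeR, against 2.11% of all genes, and 1 passed FDR < 0.01, against 4.84%. At an unadjusted limma p under 0.05, 19 were lower and 3 higher with siPDL1-1, with no share over all genes computed. *PSMD1* was at 94.9 and 94.9 CPM with siPDL1-1 and at 122 and 122 CPM with siPDL1-2 (-0.36, limma FDR = 0.00243), and this call was lost when either siPDL1-2 library was left out. The next lowest were *PSMB4* (-0.27) and *PSMC3* (-0.26). *PSMB8* was the highest, at 279 and 261 CPM with siPDL1-1 and 214 and 232 CPM with siPDL1-2, and its difference of 0.28 did not pass (limma FDR = 0.0157). It was followed by *PSMF1* (0.19) and *PSMA6* (0.12).

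Whether the IFNγ effect itself depended on the siRNA was tested as an interaction. Between siPDL1-1 and siNC cells, no proteasome gene differed, either past both thresholds (0.968% of all genes) or at FDR < 0.01 alone (1.63% of all genes). Limma gave 2 higher and 4 lower genes at an unadjusted p under 0.05 (no share over all genes was computed), and edgeR gave 0 past the FDR threshold. The largest differences of the effect were those of *PSMB8* (0.27, limma FDR = 0.103), *PSMF1* (0.20) and *PSMG3* (0.14). The lowest were those of *PSMA1* (-0.22, limma FDR = 0.0524), *PSMD10* (-0.18) and *PSMA4* (-0.18). For *PSMB9* the difference was 0.01, with a 95% interval from -0.20 to 0.23.

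Between siPDL1-2 and siNC cells, the effect was higher for 15 proteasome genes and lower for 2 at an unadjusted p under 0.05, with no share over all genes computed. No proteasome gene passed both thresholds by limma or edgeR, against 7.62% of all genes, and 6 passed FDR < 0.01. The effect was higher with siPDL1-2 for 4 genes, against 5.16% of all genes, and lower for 2, against 11.9%. *PSMD10* differed by -0.52 (standard error 0.0899, limma FDR = 0.000697), with IFNγ values of 74.9 and 80.0 CPM in siNC and 76.1 and 77.6 CPM in siPDL1-2 cells. The stimulated levels overlapped, whereas the unstimulated ones given above did not. This difference held when each of the 8 libraries was left out in turn, ranging from -0.60 to -0.45.

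**Figure D5:**
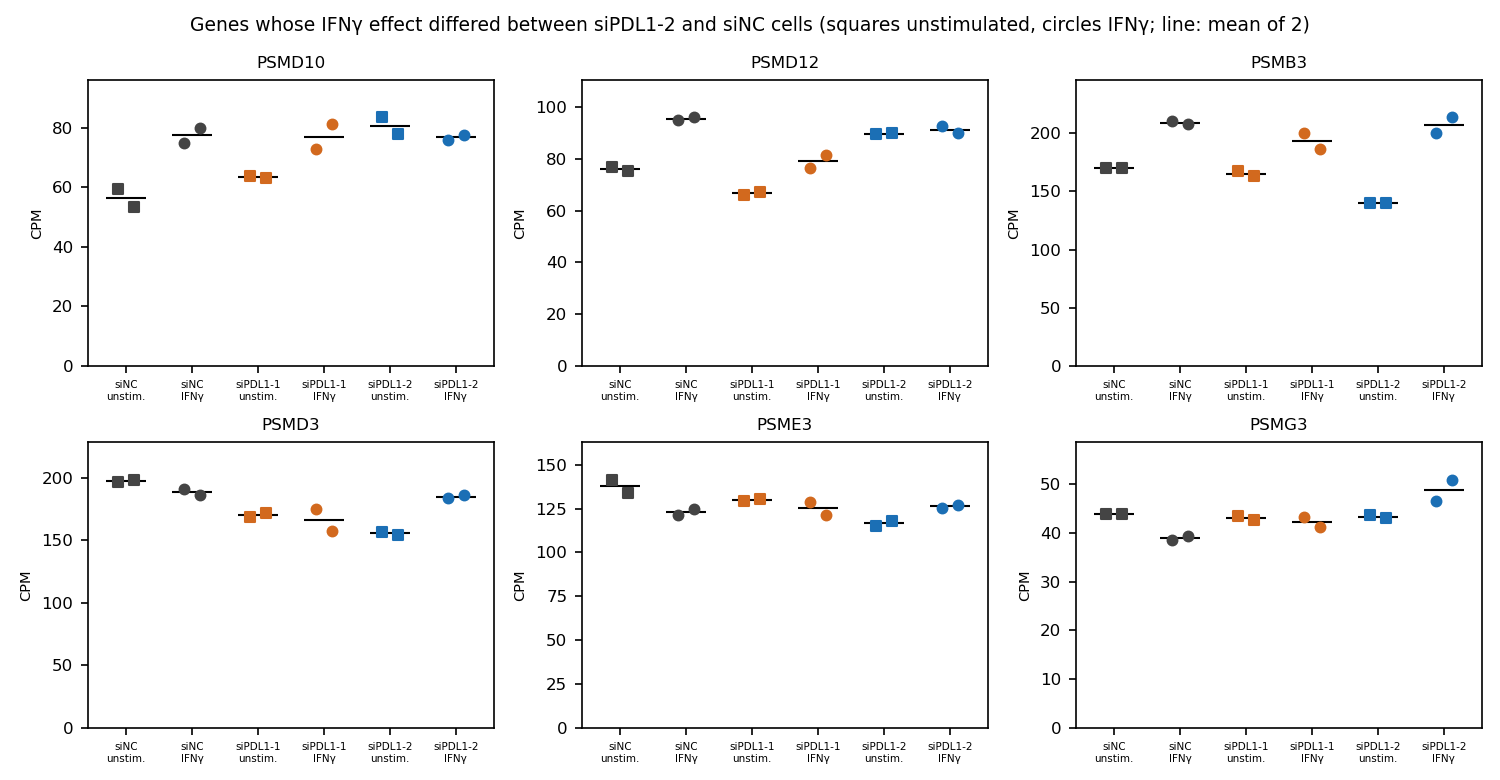
Normalised CPM in each library (squares unstimulated, circles IFNγ-stimulated, lines means of 2) of the 6 proteasome genes whose IFNγ effect differed between siPDL1-2 and siNC cells at FDR < 0.01. Unstimulated siPDL1-2 libraries lie above siNC for *PSMD10* and *PSMD12* and below it for *PSMB3*, *PSMD3* and *PSME3*.

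*PSMD12* differed by -0.30 (limma FDR = 0.00321), and its stimulated values were 95.0 and 96.2 CPM in siNC and 92.8 and 90.0 CPM in siPDL1-2 cells. *PSMD3*, a lid subunit, went from 197 and 199 to 191 and 186 CPM in siNC cells and from 157 and 154 to 184 and 186 CPM in siPDL1-2 cells, a difference of 0.32 (limma FDR = 0.00246). *PSMB3*, a beta subunit without an active site, went from 171 and 170.0 to 211 and 208 CPM and from 139.8 and 140.1 to 201 and 214 CPM, a difference of 0.27 (limma FDR = 0.00522). In *PSMD3* and *PSMB3* the siPDL1-2 libraries were below the siNC libraries before stimulation and closer to them afterwards.

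*PSME3* went from 142 and 134 to 122 and 125 CPM in siNC cells and from 115 and 118 to 125 and 127 CPM in siPDL1-2 cells, a difference of 0.28 (limma FDR = 0.00483). *PSMG3*, a chaperone of alpha ring assembly, went from 43.8 and 43.8 to 38.6 and 39.3 CPM and from 43.7 and 42.9 to 46.5 and 50.9 CPM, a difference of 0.33 (limma FDR = 0.00584). The sign of the change with IFNγ was thus opposite in the 2 siRNA groups for both genes, although neither change passed FDR < 0.01 within a group. *PSME3* overlaps *BECN1* (86.9 CPM) and *PSMG3* overlaps *PSMG3-AS1* (8.74 CPM) on the other strand. Unlike *PSMD10*, these 5 genes lost the call in at least 4 of the 8 fits without a single library. With DESeq2's size factors, the split was 8 higher and 1 lower, and on plain CPM it was 7 higher and 2 lower. For the inducible genes, the differences were -0.09 for *PSMB9*, -0.01 for *PSMB8*, 0.20 for *PSMB10*, 0.09 for *PSME1* and 0.08 for *PSME2*, with no call.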

How the data were processed

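Gene expression was measured in 12 libraries of U251 cells, grouped by siRNA and IFNγ from the sample labels. Per the methods, the authors trimmed reads, aligned them to GRCh38 (Ensembl) and normalised the expression values in CLC Genomics Workbench, with the strand setting at both. The deposited signal values are these normalised CPM. Divided by the value of 1 read, 100% of them came out whole in each library (within 0.1 read), and the reads so recovered served for filtering and count tests. The extraction kit and instrument in the methods differ from those in the labels.

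Genes were kept with filterByExpr on recovered reads (minimum count 10, minimum total 15). limma (3.58.1, R 4.3.3) was run on log2(CPM + 1) with trend and robust estimates. Effects of IFNγ, unstimulated comparisons and interactions came from all 12 libraries as 6 groups (17982 genes), and comparisons after IFNγ from the 6 stimulated libraries (17148 genes). Calls required a Benjamini-Hochberg FDR < 0.01 over all genes tested and, where stated, a fold change above 1.5. Alternatives were edgeR (4.0.16) on recovered reads, DESeq2 (1.42.0) size factors, a pseudocount of 0.1, no filter, a replicate block, other libraries in the fit, plain CPM and leaving out single libraries. The test was also run on simulated reads with a common spread for all genes. That spread need not match the one between these replicates, so no error rate is drawn from it. P-values measure the spread between these libraries. Counts at an unadjusted p were made for the proteasome genes only, so no share over all genes stands beside them. Replicates differed beyond sampling noise (mean chi-square 1.85 to 7.76).

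Named genes were *PSMB5* to *PSMB10*, *PSME1*, *PSME2*, genes past both thresholds, and the 3 highest and 3 lowest of each comparison, and genes at FDR < 0.01 alone were added after values were seen. The genes and lists were chosen with earlier results of these data known. Overlap between groups was not counted over all genes, so no share stands beside it. Lengths per kb are MANE Select transcripts of GENCODE 44, promoters are RefSeq windows, and gene regions are those of the deposited table. Overlaps between genes were taken from whole regions, introns included, and their effect on the counts was not tested. Python 3.11.15, pandas 2.3.3, numpy 2.4.6 and matplotlib 3.10.9 were used. Some values computed beside those of the proteasome genes are not reported here.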

Additional observations from a re-analysis of the deposited data

Results flagged for a closer look

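The IFNγ effect differed between siPDL1-2 and siNC cells at FDR < 0.01 in the limma interaction test for 6 proteasome genes. The difference was -0.52 for *PSMD10*, -0.30 for *PSMD12*, 0.27 for *PSMB3*, 0.32 for *PSMD3*, 0.28 for *PSME3* and 0.33 for *PSMG3* on the log2 scale. The effect was thus higher with siPDL1-2 for 4 of the 46 genes tested (8.7%), against 5.16% of all genes. It was lower for 2 (4.35%), against 11.9% of all genes. *PSMD10* passed the threshold without any 1 of the 8 libraries. *PSMD12* passed without either the first siNC or the first siPDL1-2 stimulated library, and lost the call without any of the other 6 (limma FDR up to 0.0188). *PSMB3* passed and was lost under the same omissions (limma FDR up to 0.0259). *PSMD3* passed in 4 of the 8 omissions, *PSME3* in 2 and *PSMG3* in 1, the last without the first stimulated siPDL1-2 library, which gave 0.39.

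Among the genes given beside them, the effect was lower with siPDL1-2 by 0.65 for the targeted gene (*CD274*, log2 difference -0.65). With siPDL1-1, the effect on *TAP2* was higher by 0.83 (limma FDR = 4.13e-06), and it ranged from 0.74 to 0.92 when single libraries were left out.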

How the results depend on the processing

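The IFNγ calls past both thresholds held under the 11 alternatives, apart from *PSMA2* in siNC cells on plain CPM and *PSMB2* in siPDL1-2 cells on plain CPM and without the second stimulated library. At FDR < 0.01 alone, 16 of 18 calls with siNC, 12 of 17 with siPDL1-1 and 18 of 24 with siPDL1-2 held under every alternative. Those lost under at least 1 were *PSMB4* and *PSMG2* with siNC, *PSMA1*, *PSMB3*, *PSMD10*, *PSMD12* and *PSMG2* with siPDL1-1, and *PSMA7*, *PSMB1*, *PSMB6*, *PSMD3*, *PSMD13* and *PSMG2* with siPDL1-2. Calls between siRNA groups also depended on the settings, and the causes were not tested. Leaving out single libraries, the IFNγ counts past both thresholds were 10 to 10 with siNC, 10 to 10 with siPDL1-1 and 10 to 12 with siPDL1-2. At FDR < 0.01 alone they were 17 to 18, 14 to 19 and 18 to 24. The changes of the log2 ratio ranged from 2.74 to 2.79 for *PSMB8*, 5.16 to 5.19 for *PSMB9* and 3.10 to 3.20 for *PSMB10*.

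For siPDL1-1 against siNC in unstimulated cells, the count of 12 was 7 with no filter, 20 with other libraries in the fit and 3 to 8 without single libraries. After IFNγ, the count of 11 was 7 with no filter, 21 with other libraries in the fit and 4 to 8 without single libraries. For siPDL1-2 in unstimulated cells, 22 became 10 to 15 without single libraries, and 0 to 1 past both thresholds. After IFNγ, 1 became 2 with edgeR, 2 with DESeq2's size factors, 2 on plain CPM, 6 with other libraries in the fit and 0 to 1 without single libraries. Between the siRNAs, 1 became 3 on plain CPM, 10 with other libraries in the fit and 0 to 1 without single libraries. For the interaction with siPDL1-2, 6 became 11 with edgeR, 3 with no filter and 1 to 10 without single libraries, and 0 to 1 past both thresholds.

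Of 15 pairs of groups, the deviations of same-numbered libraries correlated above 0.1 in 2, with r from -0.13 to 0.19. Every gene that passed the filter counted equally, including those with few reads. The check therefore cannot exclude that same-numbered libraries share an experiment. With the replicate block, the siPDL1-1 count after IFNγ was 7, the unstimulated counts were 11 and 20, and the other counts were those without it. Plain CPM was chosen after seeing the data. With 2 libraries a group, a left-out library leaves a lone sample, whose spread is assumed to be that of the other groups.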

Other observations

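Outside the PSM symbols, 21 genes known to act with the proteasome were examined (assembly, shuttle and deubiquitinating factors, and the transcription factor *NFE2L1* with its processing enzymes). With IFNγ, 1 of 21 was called higher in each siRNA group, against 6.67%, 5.58% and 3.62% of all genes with siNC, siPDL1-1 and siPDL1-2. It was *POMP*, the maturation factor of the 20S core, at 83.3 and 80.4 CPM in unstimulated and 139.9 and 150.2 CPM in stimulated siNC libraries. With siPDL1-1 it was at 64.4 and 64.9 against 110.1 and 114 CPM, and with siPDL1-2 at 75.2 and 70.5 against 110.5 and 111 CPM. Stimulated and unstimulated libraries did not overlap, and the log2 changes were 0.82, 0.78 and 0.60. Without the fold change threshold, 6 genes of the list rose and 2 fell in siNC cells, against 17.9% and 9.34% of all genes. With siPDL1-1, 4 rose and 3 fell, against 14.4% and 8.49%, and with siPDL1-2, 5 rose and 1 fell, against 9.57% and 7.56%.

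Between siRNA groups the differences at FDR < 0.01 were all below 1.5-fold. With the limma test, 1 gene was higher and 6 lower with siPDL1-1 in unstimulated cells, against 9.8% and 8.99% of all genes, and 2 were higher and 6 lower after IFNγ, against 8.04% and 7.66%. With siPDL1-2, 4 were higher and 5 lower in unstimulated cells, against 16.5% and 11.9%, and 2 were higher and 3 lower after IFNγ, against 4.61% and 5.06%. *POMP* was lower with siPDL1-1 in both conditions (-0.34 and, after IFNγ, -0.37, limma FDR = 0.00116) and with siPDL1-2 after IFNγ (-0.38, limma FDR = 0.00178).

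The genes next to *PSMB8* and *PSMB9*, which encode the subunits of the peptide transporter, also rose with IFNγ. *TAP1* went from 53.1 and 51.7 to 1358 and 1295 CPM in siNC cells, and its log2 changes were 4.64, 4.73 and 4.69 in the order siNC, siPDL1-1 and siPDL1-2. *TAP2* went from 74.9 and 65.9 to 388 and 379.8 CPM in siNC cells, and its changes were 2.43, 3.27 and 2.60. After IFNγ, *TAP1* was higher with siPDL1-1 than with siNC by 0.33 (limma FDR = 0.00249) and *TAP2* by 0.88 (limma FDR = 1.14e-06). The neighbouring *PSMB9* differed by -0.01 in the same comparison. *IRF1*, a transcription factor of the IFNγ response, rose by 4.85, 4.44 and 4.83, and after IFNγ it was lower than siNC by 0.63 with siPDL1-1 and 0.50 with siPDL1-2.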
